A study of Mus musculus with 18 samples.

Results

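The genes described here encode components and receptors of the complement system, and they were taken by name from the count table: C1qa, C1qb and C1qc, C2, C3, C4b, Cfb, Serping1, C3ar1 and C5ar1, which are 10 of its 50600 genes. All 10 passed the filter on low counts, with 140 to 28234 counts per gene and tumor. RNA was sequenced from whole B16F10 tumors, a mouse melanoma line grown under the skin of the right flank of female C57BL/6 mice bought at 5 to 6 weeks of age. Tumors received 1 intratumoral (IT) dose of PBS, unloaded EVs, exoCDN2 (0.1 µg), CDN2 (20 µg) or CDN2 (100 µg), or 2 doses, given 3 days apart, of PBS, exoCDN2 (0.1 µg), CDN2 (20 µg) or CDN2 of an amount the labels do not state. Each of the 9 groups had 2 tumors, collected 24 h after the last dose. CDN2, which the sample labels call CL656, is a cyclic dinucleotide that activates STING, and exoCDN2 is the same compound loaded into extracellular vesicles (EVs), which the study purified from cultured human HEK293 cells. The RNA came from tumor, immune and stromal cells together, so that fewer cells of a type and less RNA per cell cannot be told apart.

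Complement is a cascade of proteins that marks cells and debris for uptake and draws in leukocytes. In the classical pathway the recognition molecule C1q binds a target, its protease C1r activates C1s, C1s cuts C4 and C2, and the enzyme so formed cuts C3, a step that factor B of the alternative pathway amplifies and that C1 inhibitor holds back at the level of C1r and C1s. The liver supplies most complement proteins of the blood, whereas C1q is made mainly by macrophages and related myeloid cells, and the receptors for fragments of C3 and C5 sit on myeloid cells.

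The genes lie on the minus strand of GRCm38. The C1q chains stand side by side, C1qb (ENSMUSG00000036905) at chr4:136880129-136886187, C1qc (ENSMUSG00000036896) at chr4:136889804-136893065 and C1qa (ENSMUSG00000036887) at chr4:136895917-136898803. C4b (ENSMUSG00000073418) at chr17:34728380-34743882, Cfb (ENSMUSG00000090231) at chr17:34856374-34862518 and C2 (ENSMUSG00000024371) at chr17:34862604-34898265 share the class III region of the major histocompatibility complex, and C3 (ENSMUSG00000024164) lies farther along, at chr17:57203970-57228136. Serping1 (ENSMUSG00000023224) is at chr2:84765387-84775444, C3ar1 (ENSMUSG00000040552) at chr6:122847138-122856161 and C5ar1 (ENSMUSG00000049130) at chr7:16246743-16259540. Reads of C4b are uncertain where they match C4a, since 7.48% of the 150-base windows of C4b occur in C4a too. C2 and Cfb share exons with the readthrough gene Gm20547, which held 481 counts over all tumors against 173401 for C2 and 46307 for Cfb. C2 also overlaps an exon of Zbtb12 on the other strand, and the sources used here do not say whether strand was counted.

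RefSeq promoter windows (GRCm38.p6, 250 bases before to 50 after the start) were found for 5 of the 10 genes, namely C1qb, C1qc, C3, C3ar1 and C5ar1. The 150 bases before the start are shown for the C1q chains, which followed each other closely across tumors, and for the receptor genes C3ar1 and C5ar1, which did so too. They are written 5′ to 3′ along the gene, at chr4:136886201-136886350 (C1qb), chr4:136892915-136893064 (C1qc), chr6:122856158-122856307 (C3ar1) and chr7:16259339-16259488 (C5ar1), minus strand, with a match to one of the motifs searched in capitals.
C1qb: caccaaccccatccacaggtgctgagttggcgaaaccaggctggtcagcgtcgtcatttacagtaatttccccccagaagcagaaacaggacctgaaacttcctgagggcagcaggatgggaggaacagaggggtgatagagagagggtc
C1qc: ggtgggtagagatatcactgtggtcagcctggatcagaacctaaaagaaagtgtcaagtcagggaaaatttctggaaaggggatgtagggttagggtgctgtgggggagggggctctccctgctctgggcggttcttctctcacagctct
C3ar1: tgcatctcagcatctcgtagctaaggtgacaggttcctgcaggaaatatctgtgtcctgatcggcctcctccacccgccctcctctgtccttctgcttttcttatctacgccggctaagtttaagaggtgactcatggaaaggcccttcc
C5ar1: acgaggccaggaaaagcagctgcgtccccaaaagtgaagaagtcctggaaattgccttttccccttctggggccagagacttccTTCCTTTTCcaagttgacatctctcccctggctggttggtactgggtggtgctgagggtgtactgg
The motifs were an interferon-stimulated response element (GAAANNGAA, in 8.56% of 32851 mouse promoter windows), an interferon gamma activation site (TTCNNNGAA, in 8.3%) and a kappa B site (GGGANNTTC, in 3.94%), each searched on both strands. The response element was matched in C5ar1 alone, on the strand opposite to the gene, from base -66 before the RefSeq start. The stretches shown for C1qc and C5ar1, and with them this match, lie wholly inside the gene spans given above rather than before them. No motif was matched in the windows of C1qb, C1qc, C3 and C3ar1, which says no more than that these letters are not in them.

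Levels between genes were compared per kb of exon, as CPM (counts scaled to library size with TMM factors) divided by exon length. In PBS tumors after 1 dose C1qa stood first with a mean level of 93.8 CPM per kb and C1qb next with 76.5, and their tumors overlapped. The levels of C2 (46.2 CPM per kb), C1qc (38.9) and C4b (14.9) followed in that order without overlap. Cfb (7.53), Serping1 (5.79) and C3ar1 (4.75) each overlapped the next, which for C3ar1 was C3 (3.99). C5ar1 was lowest with 2.33 CPM per kb and did not overlap C3. After 2 doses of exoCDN2 the highest level was that of C2, at 104 CPM per kb, and after 2 doses of CDN2 (20 µg) it was that of Serping1, at 133. The latter mean rests on tumor 1, where Serping1 was at 224 CPM per kb and Cfb next at 173. In tumor 2 Serping1 was at 41.0 CPM per kb, below C1qa (104), C2 (81.8), C1qb (77.5), Cfb (48.9) and C1qc (43.5).

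Total counts were 38671428 to 65983630 per tumor in 17 of the tumors and 21608895 in tumor 1 of the group given 2 doses of CDN2 (20 µg), which stood apart in other ways too. Its summed melanocyte lineage markers were at 7747 CPM against 13680 to 26770 CPM in the other tumors, its neutrophil markers at 970 CPM against 1.62 to 220, and its skeletal muscle markers at 3786 CPM against 3.997 to 1944. Its levels of Serping1, C3 and Cfb were 5.47, 5.08 and 3.54 times those of tumor 2. Values without this tumor are given beside the results that rest on it. In the other groups the tumors of a group differed by at most 2.22 times at any of the 10 genes, apart from unloaded EVs, where tumor 2 was higher at all 10 genes, over 2-fold at 6 of them and by up to 3.73 times at C3.

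**Figure D1:**
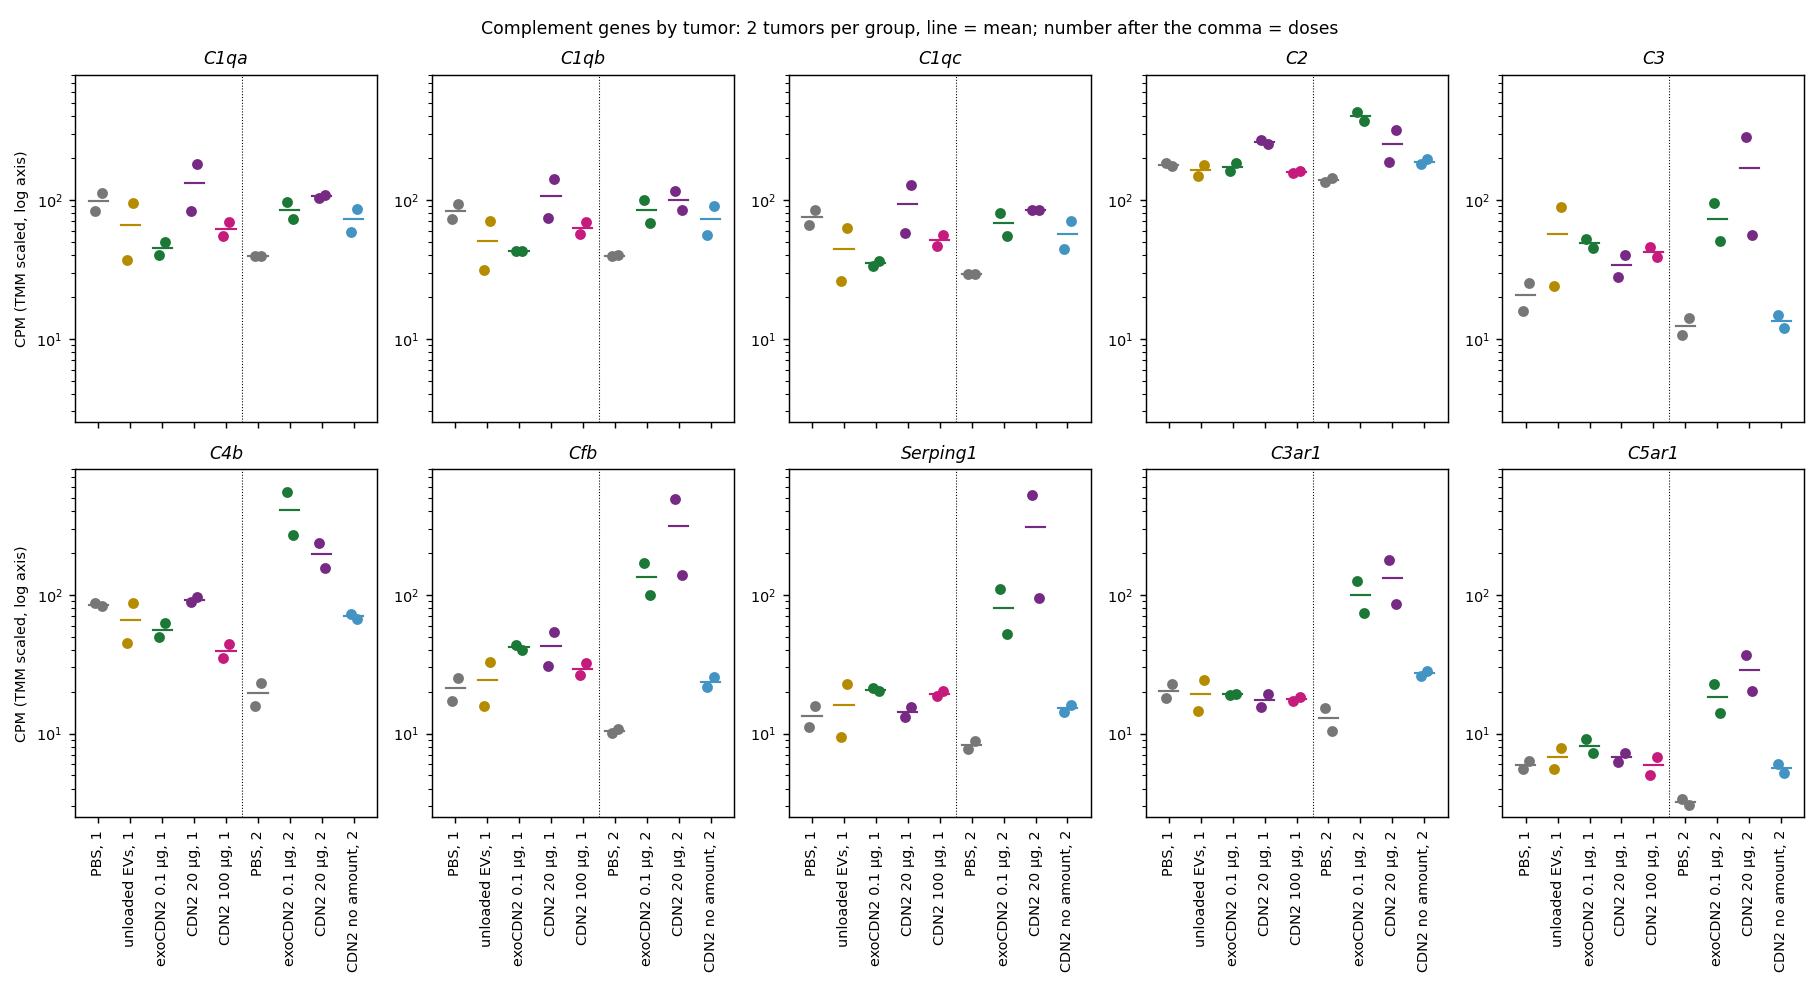
Level of each complement gene in each tumor, in CPM scaled by TMM on a log axis. Points are single tumors, lines are means of 2 tumors, and the dotted line parts 1 dose from 2 doses. For C4b, Cfb, Serping1, C3ar1 and C5ar1 all tumors given 2 doses of exoCDN2 or CDN2 (20 µg) lie above every other tumor, whereas the C1q chains of these tumors lie within the range of the tumors given 1 dose.

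The first question was which complement genes differed from PBS after 2 doses. Against the PBS tumors of 2 doses, 7 of the 10 genes were higher with exoCDN2, in a comparison that called 8.83% of all 16927 genes tested as higher. With CDN2 (20 µg), 9 of the 10 were higher, where 20.0% of all genes were called as higher. Here and below, a called gene had a ratio over 2 and, in the quasi-likelihood test of edgeR with Benjamini-Hochberg adjustment, an adjusted p under 0.05. None of the 10 was called lower with either agent. The median log2 fold change of the 10 genes was 2.53 with exoCDN2 and 3.23 with CDN2, beside 0.01 and 0.00 over all genes tested. Tumor 1 of CDN2 enters the median with CDN2, so the order of the agents is not read from these medians. Without it the values with CDN2 fell from 5.21 to 3.51 at Serping1, 4.91 to 3.72 at Cfb and 3.78 to 2.16 at C3. Those of C2 (0.86 to 1.17) and C1qa (1.43 to 1.44) rose. Both comparisons used the same PBS tumors, so their values are given side by side.

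The chains of the recognition molecule C1q stood nearer to PBS than most of the other genes. After 2 doses C1qa stood at 39.4 and 39.5 CPM in the PBS tumors, 97.2 and 72.3 CPM with exoCDN2, and 104 and 108 CPM with CDN2 (20 µg). The groups treated with either agent did not overlap PBS. This held for all 10 genes with each agent. It also held, in either direction, for 59.65% of all genes tested with exoCDN2 and 65.54% with CDN2. With CDN2 the log2 fold change was 1.43 for C1qa (SE 0.41, adjusted p = 0.013), 1.33 for C1qb (SE 0.37, adjusted p = 0.011) and 1.53 for C1qc (SE 0.40, adjusted p = 0.0079), and all 3 chains were called. With exoCDN2 it was 1.10 for C1qa (SE 0.41, adjusted p = 0.083), 1.09 for C1qb (SE 0.37, adjusted p = 0.06) and 1.22 for C1qc (SE 0.40, adjusted p = 0.053), and none passed. These values lay close to the limit, and DESeq2 called all 3 chains with exoCDN2 too (adjusted p = 0.037 for C1qa, 0.023 for C1qb and 0.015 for C1qc), as did edgeR without the filter on low counts or with only the groups compared in the fit, so that all 10 genes were then called. The calls with CDN2 depended on the PBS tumors used as the control. Against all 4 PBS tumors of both numbers of doses, the log2 fold changes were 0.63, 0.70 and 0.70 for C1qa, C1qb and C1qc, with adjusted p = 0.27, 0.15 and 0.22. Without tumor 1 of CDN2, C1qa (1.44, adjusted p = 0.058) and C1qb (1.08, adjusted p = 0.093) were no longer called, and without PBS tumor 1 or 2 the adjusted p was 0.068 or 0.064 for C1qa and 0.062 or 0.054 for C1qb. Without tumor 2 of CDN2, C1qa alone of the chains lost its call (adjusted p = 0.056).

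The C1q chains kept a narrow ratio to each other in all 18 tumors. C1qb was 0.745 to 1.11 times C1qa, and C1qc 0.664 to 0.847 times C1qa, in CPM, while the level of C1qa itself ranged from 36.9 to 180.0 CPM. The sum of the chains over Csf1r, the receptor for the macrophage growth factor CSF1, was wider, from 6.59 to 18.5, with the highest value in tumor 2 of the group given 1 dose of CDN2 (20 µg) and the lowest in tumor 2 of the group given 2 doses of exoCDN2.

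C4b, which encodes the mouse C4 cut by C1s, had the largest difference of the 10 genes with exoCDN2. It stood at 15.9 and 23.2 CPM in the PBS tumors after 2 doses, 549.8 and 271 CPM with exoCDN2 and 235 and 157 CPM with CDN2 (20 µg). Each treated tumor was several times higher than either PBS tumor. On the log2 scale the fold change was 4.39 with exoCDN2 (SE 0.41, adjusted p = 3e-05) and 3.33 with CDN2 (SE 0.39, adjusted p = 8.6e-05). C4b was also the gene whose PBS tumors differed most between doses, as described further on. Against all 4 PBS tumors the log2 fold changes were 2.97 with exoCDN2 (adjusted p = 0.0061) and 1.91 with CDN2 (adjusted p = 0.017). With exoCDN2 the largest difference was then that of Cfb, at 3.09.

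C2, the other substrate of C1s, stood at 135 and 143 CPM in the PBS tumors after 2 doses, 433 and 372 CPM with exoCDN2 and 187 and 317 CPM with CDN2 (20 µg). Both groups lay above PBS without overlap. With exoCDN2 the log2 fold change was 1.53 (SE 0.21, adjusted p = 0.00044). With CDN2 it was 0.86 (SE 0.20, adjusted p = 0.0048), a ratio under 2, so that C2 was the gene not called there. Without tumor 1 of CDN2, which was the lower of the pair at C2, the value was 1.17 (adjusted p = 0.00014).

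C3 is the protein on which all pathways of complement meet. Its PBS tumors after 2 doses stood at 10.7 and 14.1 CPM, those given exoCDN2 at 95.7 and 50.4 CPM and those given CDN2 (20 µg) at 284 and 56.0 CPM. The spread between the treated tumors of a group was wide, and no treated tumor came down to PBS. Log2 fold changes were 2.56 with exoCDN2 (SE 0.71, adjusted p = 0.027) and 3.78 with CDN2 (SE 0.74, adjusted p = 0.0016). Without tumor 1 of CDN2 it was 2.16 there (adjusted p = 0.029). With exoCDN2 the call was lost without exoCDN2 tumor 1 (2.03, adjusted p = 0.2), PBS tumor 1 (2.37, adjusted p = 0.12) or PBS tumor 2 (2.78, adjusted p = 0.12).

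Cfb, which encodes factor B of the alternative pathway, stood at 10.03 and 10.8 CPM in the PBS tumors after 2 doses, 169.8 and 99.6 CPM with exoCDN2 and 489 and 138 CPM with CDN2 (20 µg). All treated tumors were far above PBS, and tumor 1 of CDN2 was far above the others. The log2 fold change was 3.69 with exoCDN2 (SE 0.57, adjusted p = 0.00099) and 4.91 with CDN2 (SE 0.60, adjusted p = 0.0001). Without tumor 1 of CDN2 it was 3.72 (adjusted p = 0.00038).

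Serping1, which encodes C1 inhibitor, had the largest difference of the 10 genes with CDN2 (20 µg) when both CDN2 tumors were used. Its PBS tumors after 2 doses stood at 7.76 and 8.86 CPM, those given exoCDN2 at 109 and 52.4 CPM and those given CDN2 at 521 and 95.3 CPM. The groups did not overlap PBS. With a log2 fold change of 5.21 (SE 0.73, adjusted p = 0.00021), CDN2 was farthest from PBS here. Cfb, at 3.72, was farthest without tumor 1 of CDN2, where Serping1 was at 3.51. With exoCDN2 it was 3.28 (SE 0.67, adjusted p = 0.0055), with an adjusted p of 0.05 without exoCDN2 tumor 1 (2.66) and 0.056 without PBS tumor 2 (3.38), at which the call was lost.

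The receptors were higher with both agents. C3ar1, the receptor for the C3 fragment C3a, stood at 15.3 and 10.5 CPM in the PBS tumors after 2 doses, 125 and 73.7 CPM with exoCDN2 and 177 and 85.8 CPM with CDN2 (20 µg). Its log2 fold change was 2.95 with exoCDN2 (SE 0.38, adjusted p = 0.00032) and 3.35 with CDN2 (SE 0.38, adjusted p = 7.8e-05). C5ar1, the main receptor for the C5 fragment C5a, stood lower throughout, at 3.39 and 3.06 CPM with PBS, 22.8 and 13.98 CPM with exoCDN2 and 36.6 and 20.4 CPM with CDN2. Its log2 fold change was 2.51 with exoCDN2 (SE 0.33, adjusted p = 0.00035) and 3.14 with CDN2 (SE 0.34, adjusted p = 5.1e-05). No treated tumor overlapped PBS at either receptor, and both receptors kept their calls with CDN2 without its tumor 1 (log2 fold changes of 2.72 for C3ar1 and 2.65 for C5ar1).

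The tumors given 2 doses of CDN2 of an unstated amount stood much nearer to PBS. There 1 of the 10 genes was called, beside 0.918% of the 17110 genes tested with these tumors included. C4b was at 73.0 and 66.7 CPM against 15.9 and 23.2 CPM with PBS, a log2 fold change of 1.84 (SE 0.35, adjusted p = 0.019). This call was lost without either PBS tumor or without tumor 2 of the treated group (adjusted p = 0.11 each), and against all 4 PBS tumors the value was 0.42 (adjusted p = 0.88). The log2 fold change was above 0 for all 10 genes (51.4% of all genes tested), 8 had an unadjusted p under 0.05 (10.4% of all genes) and 9 did not overlap PBS (30.6% of all genes, in either direction). C3 was the gene that overlapped, at 14.8 and 11.99 CPM against 10.7 and 14.1 CPM.

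**Figure D2:**
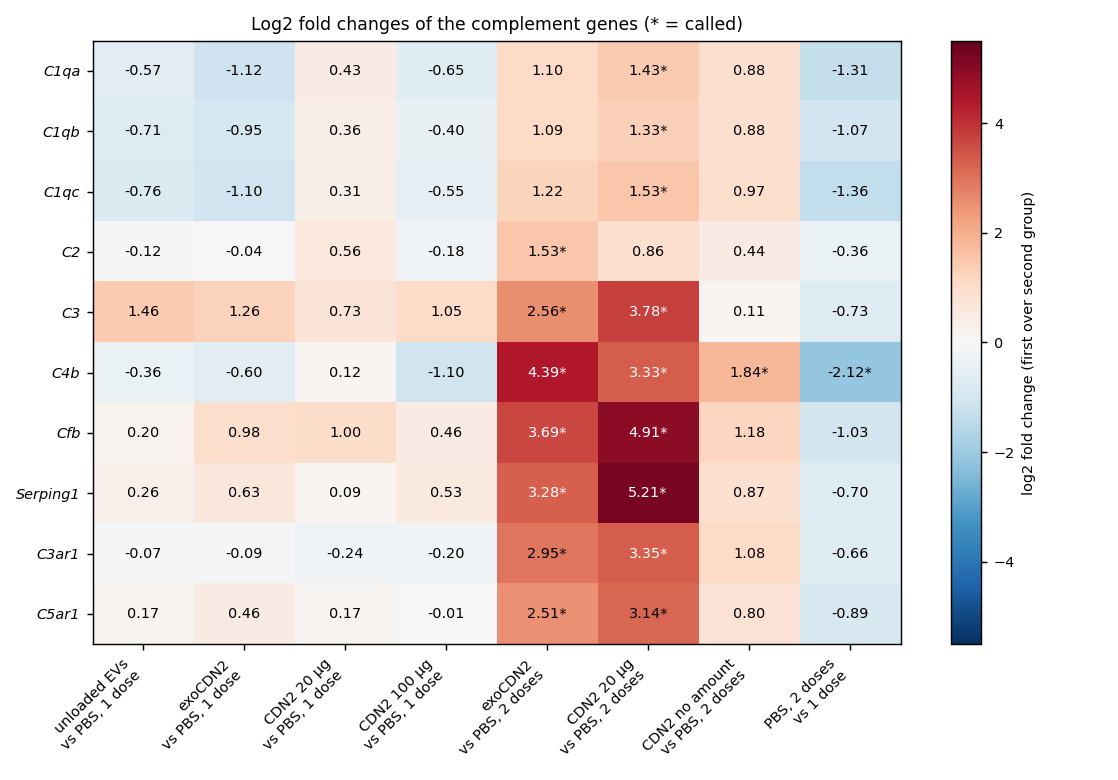
Log2 fold changes of the complement genes (rows) in comparisons (columns), each the first group named over the second, from edgeR's model. Asterisks mark called genes. The columns for 1 dose hold no call, and those for 2 doses of exoCDN2 and CDN2 (20 µg) hold 7 and 9, with the largest values at C4b (4.39) and Serping1 (5.21). Cfb is first instead for exoCDN2 against all 4 PBS tumors and for CDN2 without its tumor 1.

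A second question was whether exoCDN2 and free CDN2 differed, bearing in mind that the amounts were 0.1 µg and 20 µg. After 2 doses, 1 of the 10 genes was higher with exoCDN2 (7.31% of all genes tested were) and 1 was lower (12.0% were). C4b was higher with exoCDN2, with a log2 fold change of 1.07 (SE 0.36, adjusted p = 0.036, 95% interval 0.29 to 1.85). Serping1 was lower, with -1.93 (SE 0.62, adjusted p = 0.031, 95% interval -3.29 to -0.57), although its tumors overlapped. C2 was higher with exoCDN2 in both tumors, by 0.68 on the log2 scale (SE 0.20, adjusted p = 0.024), a ratio under 2. Without tumor 1 of CDN2 the value of C2 was 0.34.

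Tumor 1 of CDN2 decided much of this comparison. Without it no gene of the 10 was called: Serping1 was at -0.24 (adjusted p = 0.77), C4b at 1.38 (adjusted p = 0.078), Cfb at -0.04 in place of -1.22, and C3 turned from -1.22 to 0.38. Without tumor 2 of CDN2 in its place, Serping1 was at -2.65, C3 at -1.92, Cfb at -1.82 and C2 at 1.15. Of the exoCDN2 tumors, leaving out tumor 1 took C4b to 0.49 (adjusted p = 0.32) and leaving out tumor 2 took Serping1 to -1.46 (adjusted p = 0.2), with 1 call each. For the C1q chains the difference was -0.32 (95% interval -1.20 to 0.55) at C1qa, -0.24 (-1.03 to 0.55) at C1qb and -0.31 (-1.16 to 0.54) at C1qc. For the receptors it was -0.40 (-1.16 to 0.36) at C3ar1 and -0.63 (-1.30 to 0.04) at C5ar1, and levels 2-fold lower with exoCDN2 lie within all 5 of these intervals.

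**Figure D3:**
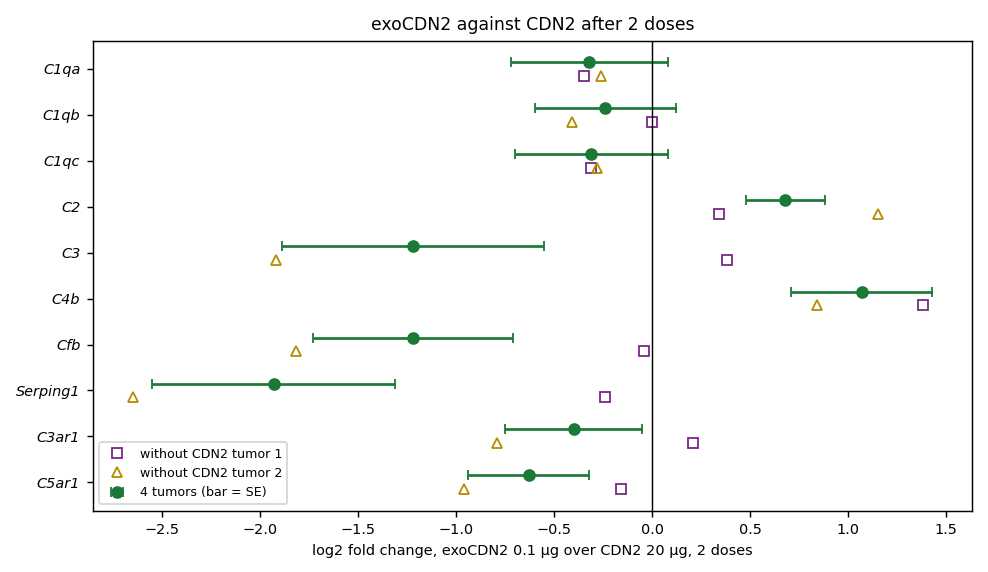
Log2 fold change of exoCDN2 (0.1 µg) over CDN2 (20 µg) after 2 doses for each complement gene, with all 4 tumors (filled circles, bars are SE) and without tumor 1 (squares) or tumor 2 (triangles) of CDN2. The squares and triangles lie far apart for C3, Cfb and Serping1, where C3 moves from 0.38 to -1.92.

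After 1 dose, none of the 10 genes was called in any comparison with PBS. Unloaded EVs called 0.0% of the 16927 genes by edgeR, where 537 genes had an unadjusted p under 0.05 and DESeq2 called 36. None of the 10 genes had an unadjusted p under 0.05 there, and DESeq2 called none. The share of all genes called was 2.62% with exoCDN2, 3.11% with CDN2 (20 µg) and 2.42% with CDN2 (100 µg), and the number of the 10 genes with an unadjusted p under 0.05 was 3, 1 and 1, beside 15.8%, 16.1% and 15.04% of all genes. DESeq2 called none of the 10 in these comparisons.

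Of all comparisons after 1 dose, the C1q chains came nearest to a call, between exoCDN2 and CDN2 (20 µg). C1qa stood at 83.3 and 112 CPM with PBS, 36.9 and 94.7 CPM with unloaded EVs, 40.0 and 49.8 CPM with exoCDN2, 83.2 and 180.0 CPM with CDN2 (20 µg), and 54.8 and 69.4 CPM with CDN2 (100 µg). The tumors given exoCDN2 lay below both PBS tumors, whereas those given CDN2 (20 µg) reached from the lower PBS tumor to the highest value of the series. Against PBS the log2 fold change with exoCDN2 was -1.12 for C1qa (SE 0.41, adjusted p = 0.19), -0.95 for C1qb (SE 0.37, adjusted p = 0.22) and -1.10 for C1qc (SE 0.39, adjusted p = 0.19). Against CDN2 (20 µg) it was -1.55 for C1qa (SE 0.41, adjusted p = 0.079), -1.32 for C1qb (SE 0.37, adjusted p = 0.088) and -1.40 for C1qc (SE 0.40, adjusted p = 0.091). In that comparison 0 of the 10 genes were called by edgeR, beside 0.603% of all genes, 4 of the 10 had an unadjusted p under 0.05, as had 19.5% of all genes, and DESeq2 called the 3 chains.

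C4b after 1 dose stood at 86.7 and 83.4 CPM with PBS, 45.3 and 87.2 with unloaded EVs, 49.9 and 62.1 with exoCDN2, 88.7 and 96.2 with CDN2 (20 µg) and 34.9 and 44.2 with CDN2 (100 µg). The larger amount of CDN2 gave the lowest values and the smaller one the highest. CDN2 (100 µg) was at a log2 fold change of -1.10 against PBS (SE 0.36, adjusted p = 0.15) and -1.22 against CDN2 (20 µg) (SE 0.36, adjusted p = 0.12). In the comparison of the amounts 0 of the 10 genes were called by edgeR, beside 0.449% of all genes, 4 of the 10 had an unadjusted p under 0.05, as had 16.5% of all genes, and DESeq2 called C4b alone.

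C3 after 1 dose stood at 15.8 and 25.3 CPM with PBS, 23.9 and 89.1 with unloaded EVs, 52.7 and 45.3 with exoCDN2, 27.7 and 40.3 with CDN2 (20 µg) and 45.7 and 39.1 with CDN2 (100 µg). Each group given CDN2 in some form lay above PBS without overlap, and the highest single tumor was one given unloaded EVs. Of all genes tested, 68.13% did not overlap PBS with exoCDN2, 58.04% with CDN2 (20 µg) and 67.24% with CDN2 (100 µg), in either direction. The log2 fold change was 1.46 with unloaded EVs (SE 0.68, adjusted p = 1.0), 1.26 with exoCDN2 (SE 0.68, adjusted p = 0.41) and 1.05 with CDN2 (100 µg) (SE 0.67, adjusted p = 0.55). Cfb ranged from 15.9 to 54.0 CPM after 1 dose, Serping1 from 9.44 to 22.9 CPM, C3ar1 from 14.7 to 24.2 CPM and C5ar1 from 5.08 to 9.09 CPM. For C3ar1 every treated group overlapped PBS. Between exoCDN2 and unloaded EVs, 0 of the 10 genes were called, none had an unadjusted p under 0.05, DESeq2 called none, and 2.93% of all genes were called.

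The levels of the PBS tumors themselves differed between doses, which touches every comparison of doses. All 10 genes were lower in both PBS tumors of 2 doses than in both of 1 dose, as were 22.8% of all genes tested. At C4b this passed the test, with a log2 fold change of -2.12 (SE 0.37, adjusted p = 0.014), in a comparison that called 1.05% of all genes as lower. The call was lost without any 1 of the 4 PBS tumors, with adjusted p of 0.069 to 0.093. The C1q chains were at -1.31 for C1qa (SE 0.41, adjusted p = 0.21), -1.07 for C1qb (SE 0.37, adjusted p = 0.27) and -1.36 for C1qc (SE 0.40, adjusted p = 0.17). Marker lists differed between these PBS tumors too. All 12 macrophage and monocyte markers had values below 0 (median -0.65, none called), all 6 T and NK cell markers did (median -2.21, 1 called), and keratinocyte markers summed to 66.5 to 124 CPM after 1 dose and 0.416 to 0.735 CPM after 2. Their part in the complement values was not tested. Tumors of 2 doses were also collected 3 days later after the first injection than those of 1 dose, and the number of injections and the time cannot be told apart.

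With exoCDN2, 4 of the 10 genes were higher after 2 doses than after 1, where 5.07% of all genes were. These differed by a log2 fold change of 2.87 for C4b (SE 0.38, adjusted p = 0.0017), 2.37 for C3ar1 (SE 0.37, adjusted p = 0.0035), 1.21 for C2 (SE 0.21, adjusted p = 0.0045) and 1.16 for C5ar1 (SE 0.31, adjusted p = 0.032). Cfb (1.68, adjusted p = 0.055) and Serping1 (1.96, adjusted p = 0.063) did not pass, whereas DESeq2 called both (adjusted p = 0.01 and 0.041), as did edgeR without the filter on low counts, with only the groups compared, and without the tumors given 2 doses of CDN2 (20 µg). Without tumor 1 of 1 dose C4b alone was called, and without tumor 1 of 2 doses C4b and C3ar1. Leaving out tumor 2 of 1 dose took the adjusted p of C5ar1 to 0.2.

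With CDN2 (20 µg), 6 of the 10 genes were higher after 2 doses than after 1, where 14.4% of all genes were. The log2 fold change was 4.43 for Serping1 (SE 0.70, adjusted p = 0.0012), 2.92 for C3ar1 (SE 0.38, adjusted p = 0.00065), 2.88 for Cfb (SE 0.54, adjusted p = 0.0026), 2.32 for C3 (SE 0.70, adjusted p = 0.023), 2.08 for C5ar1 (SE 0.32, adjusted p = 0.0012) and 1.08 for C4b (SE 0.36, adjusted p = 0.034). Without tumor 1 of 2 doses, Serping1 (2.72, adjusted p = 0.0054), Cfb (1.69, adjusted p = 0.027), C3ar1 (2.29, adjusted p = 0.0022) and C5ar1 (1.59, adjusted p = 0.0043) came nearer to the tumors of 1 dose and were still called. C3 (0.71, adjusted p = 0.48) and C4b (0.75, adjusted p = 0.25) were then no longer called. Leaving out either tumor of 1 dose also ended both calls, with adjusted p of 0.15 and 0.07 for C3 and 0.17 and 0.11 for C4b. C2 and the C1q chains overlapped between the doses of CDN2. C2 stood at 272 and 254 CPM after 1 dose and 187 and 317 CPM after 2.

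The difference between doses was then taken relative to PBS, as the difference of the treatment from PBS after 2 doses minus that after 1. With exoCDN2 it was called as higher for 8 of the 10 genes, all but C3 and Serping1, where 5.09% of all genes were. With CDN2 (20 µg) it was called as higher for 6 genes, namely C3, C4b, Cfb, Serping1, C3ar1 and C5ar1, where 11.6% of all genes were. The value of Serping1 went from 5.12 to 3.41 (adjusted p = 0.0091) without tumor 1 of 2 doses of CDN2, that of Cfb from 3.91 to 2.71 (adjusted p = 0.017) and that of C3 from 3.05 to 1.43 (adjusted p = 0.29), at which C3 was no longer called. For the C1q chains with exoCDN2 the value was 2.22 for C1qa (SE 0.57, adjusted p = 0.035), 2.04 for C1qb (SE 0.52, adjusted p = 0.033) and 2.31 for C1qc (SE 0.56, adjusted p = 0.027), and it holds both the values below PBS after 1 dose and the values above PBS after 2. The count of 8 with exoCDN2 was 3 or 4 without any 1 of the PBS tumors, either tumor of 1 dose of exoCDN2 or tumor 1 of 2 doses, with PBS tumors 1 of either dose giving 4, and 8 without tumor 2 of 2 doses.

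Other genes of complement were taken from a list of 45, of which 27 were tested. After 2 doses, 6 of the 27 were called higher and none lower with exoCDN2, and 9 were higher and 1 lower with CDN2 (20 µg). Of all genes tested, 8.83% were higher and 2.47% lower with exoCDN2, and 20.0% higher and 10.5% lower with CDN2. The medians of the 27 genes were 0.14 and 0.17 on the log2 scale. C1ra, which encodes the protease C1r, stood at 12.7 and 15.6 CPM with PBS, 146 and 92.0 CPM with exoCDN2 and 125 and 91.0 CPM with CDN2. Its log2 fold change was 3.07 (SE 0.29, adjusted p = 3.2e-05) with exoCDN2 and 2.93 (SE 0.29, adjusted p = 3.4e-05) with CDN2. C1s1, which encodes C1s, stood at 8.05 and 5.91 CPM with PBS, 47.6 and 26.5 with exoCDN2 and 214 and 48.0 with CDN2. Its log2 fold change was 2.41 (SE 0.62, adjusted p = 0.018) with exoCDN2 and 4.23 (SE 0.66, adjusted p = 0.00043) with CDN2, where it was 2.77 (adjusted p = 0.0026) without tumor 1 of CDN2. Thus the genes of C1r and C1s and of the inhibitor that binds them were all higher than PBS with either agent.

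The integrin chains of the receptor for the C3 fragment iC3b rose with both agents. With exoCDN2 the log2 fold change was 2.81 for Itgam (SE 0.44, adjusted p = 0.0012) and 2.62 for Itgb2 (SE 0.34, adjusted p = 0.00032). With CDN2 it was 2.70 for Itgam (SE 0.44, adjusted p = 0.00052) and 2.05 for Itgb2 (SE 0.33, adjusted p = 0.00051). Clu, which encodes clusterin, an inhibitor of the terminal steps, stood at 69.9 and 29.7 CPM with CDN2, 6.10 and 6.03 with exoCDN2 and 4.72 and 3.94 with PBS. It was higher with CDN2 than with PBS (log2 fold change 3.52, SE 0.40, adjusted p = 7.3e-05) and lower with exoCDN2 than with CDN2 (-3.04, SE 0.39, adjusted p = 0.0011). For Clu these values were, leaving out tumor 1 of CDN2, 2.77 (adjusted p = 8.3e-05) and -2.30 (adjusted p = 0.0018). C6, a component of the membrane attack complex, was the gene called lower with CDN2, with 0 and 1 counts against 29 and 33 counts in the PBS tumors (adjusted p = 0.0035). Of the other terminal components, C7, C8a, C8b and C9 had at most 4 counts in any tumor and were not tested.

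**Figure D4:**
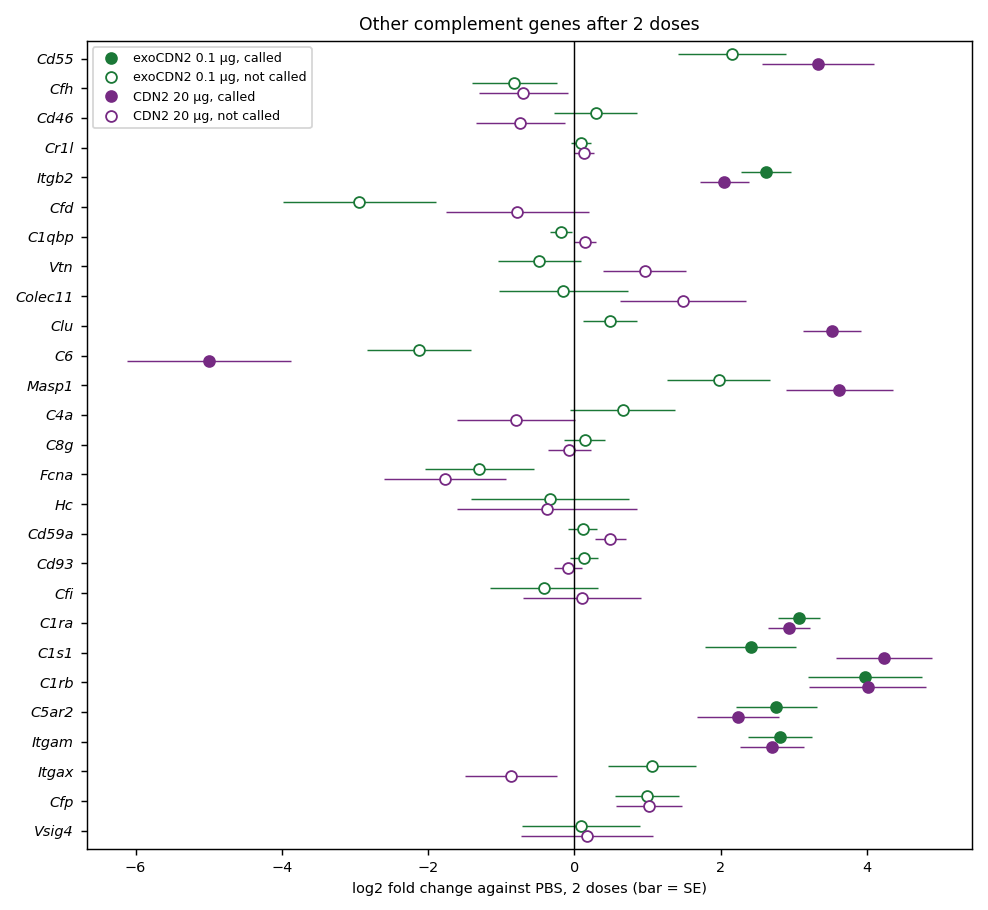
Log2 fold changes against PBS after 2 doses for the 27 tested genes of the wider complement list, with exoCDN2 (0.1 µg) and CDN2 (20 µg). Filled circles are called genes and bars are SE. The genes of C1r and C1s and the integrin chains Itgam and Itgb2 are filled for both agents, and Clu for CDN2.

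Markers of other cell types moved with the same groups. Of 12 macrophage and monocyte markers, 8 were called higher after 2 doses of exoCDN2, and 8 higher and 1 (Mrc1) lower after 2 doses of CDN2 (20 µg). Their summed level was 193 to 250 CPM in the PBS tumors of 2 doses, 421 to 597 CPM with exoCDN2, 415 to 834 CPM with CDN2 and 230 to 405 CPM in all tumors of 1 dose. Neutrophil markers summed to 1.62 to 2.39 CPM with PBS, 23.6 to 72.4 CPM with exoCDN2 and 220 to 970 CPM with CDN2 after 2 doses, and melanocyte lineage markers to 25010 to 25540, 15980 to 17280 and 7747 to 13680 CPM. Fibroblast markers summed to 364 to 365 CPM with PBS, 448 to 997 CPM with exoCDN2 and 871 to 1853 CPM with CDN2. T and NK cell markers summed to 0.963 to 1.92 CPM with PBS, 23.6 to 29.5 CPM with exoCDN2 (5 of 6 called higher) and 5.41 to 7.23 CPM with CDN2 (3 called). Skeletal muscle markers summed to 162 to 294 CPM with PBS, 169.5 to 169.7 CPM with exoCDN2 (none called) and 1944 to 3786 CPM with CDN2 (5 of 6 called higher), and keratinocyte markers to 0.416 to 0.735, 1.34 to 82.98 (1 of 6 called higher) and 2.05 to 22.2 CPM. The part of these cell types in the complement values was not tested. The 6 hepatocyte markers, Alb among them, had at most 13 counts in any tumor and their sum was at most 0.425 CPM.

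**Figure D5:**
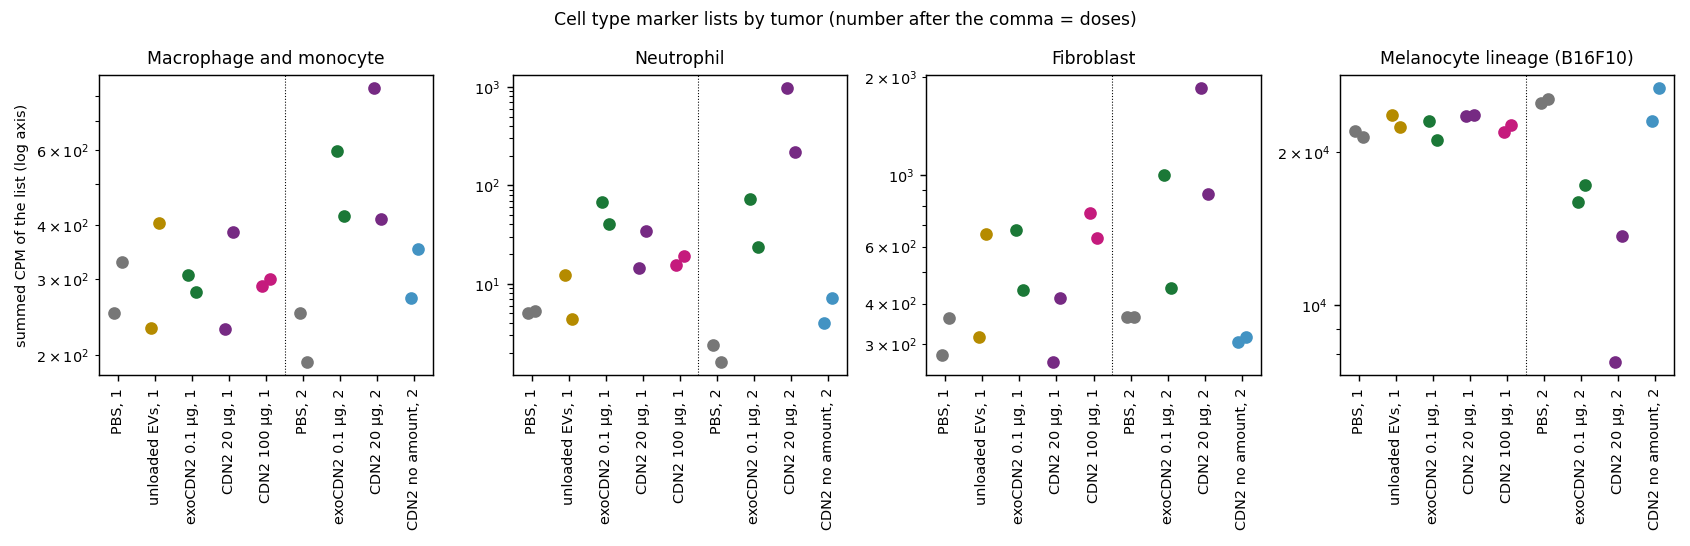
Summed CPM of the markers of 4 cell types in each tumor, on log axes. After 2 doses of exoCDN2 or CDN2 (20 µg) the macrophage sums (415 to 834 CPM) lie above, and the melanocyte lineage sums (7747 to 17280 CPM) below, those of every other tumor.

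Across the 16 tumors of the model, the log2 levels of the 10 genes fell into sets by Pearson's r, given as a description since the tumors share groups, libraries and depth. The C1q chains followed each other with r = 0.97 to 0.99. Cfb, Serping1, C3ar1 and C5ar1 followed each other with r = 0.93 to 0.98. C2 was nearest to C4b (r = 0.86) and farthest from C3 (r = 0.40). The place of C2 rested on tumor 1 of 2 doses of CDN2, since without it the r of C2 went from 0.64 to 0.88 with Cfb, from 0.52 to 0.82 with Serping1, from 0.66 to 0.86 with C3ar1, from 0.65 to 0.85 with C5ar1 and from 0.40 to 0.57 with C3. Outside the 10 genes, C1qa (r = 0.878) and C1qc (r = 0.902) were most like Aif1, a gene of macrophages, and C1qb was most like Ly86 (r = 0.889) and then Trem2 (r = 0.888). C2 was most like Grn (r = 0.956), C3 like Efemp1 (r = 0.947) and C4b like Itgb2 (r = 0.967). The nearest gene was Plcl2 for Cfb (r = 0.994), Ifi27l2a for Serping1 (r = 0.992), Bst1 for C3ar1 (r = 0.985) and Psd4 for C5ar1 (r = 0.982).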

How the data were processed

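Expected counts per gene were taken as deposited, for 18 tumors. Per the study's methods, the authors removed low-quality reads and used the OSA aligner of OmicSoft ArraySuite against GRCm38. They estimated the counts with RSEM on Ensembl R88 gene models and then scaled them with the size factors of DESeq2. The deposited counts are those before scaling. Estimated counts share reads between similar genes. Totals of 21608895 to 65983630 counts per tumor limit the precision of low genes. GENCODE M21 gave symbols to 50376 of 50600 identifiers.

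Counts were rounded and fitted with edgeR 4.0.16 in R 4.3.3 (TMM scaling, filterByExpr with a minimum count of 10 and a minimum total of 15, robust quasi-likelihood) with 1 mean per group. The 16 tumors of 8 groups were fitted together, and all 18 for CDN2 of unstated amount, which was compared within that fit. Benjamini-Hochberg adjustment ran over all genes tested. Called genes passed an adjusted p of 0.05 and differed over 2-fold, as in the study, which used DESeq2. SE is the log2 fold change over the square root of F, and intervals use the t distribution with the degrees of freedom of the test. The tumors of a group are the study's biological replicates. Likeness used log2 CPM with a prior count of 2.

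The 10 genes, the wider complement list and the marker lists were chosen with earlier results of these data known. All 10 genes were described, with at most 3 higher and 3 lower called genes of the wider list per comparison by smallest adjusted p, and the 3 genes most like each by r. C1s1 with exoCDN2 was named after its values were seen, and not all of these genes are printed. The procedure was checked on simulated counts. Alternatives were DESeq2 1.42.0, RLE factors, no filter, no limit on the ratio, only the groups compared, all 18 tumors, pooled PBS tumors, the replicate number as a block, each tumor left out, and a fit without the tumors given 2 doses of CDN2 (20 µg).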

Additional observations from a re-analysis of the deposited data

Results flagged for a closer look

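These results were flagged because the difference of a treatment from PBS was not the same after 1 dose and after 2 doses, by edgeR's test of that difference itself (adjusted p under 0.05). The values are the log2 difference after 2 doses minus that after 1. With exoCDN2 (0.1 µg) they were 4.99 for C4b (SE 0.53, adjusted p = 0.00057), 3.03 for C3ar1 (SE 0.51, adjusted p = 0.0046), 2.71 for Cfb (SE 0.73, adjusted p = 0.043), 2.31 for C1qc, 2.22 for C1qa, 2.05 for C5ar1 (SE 0.44, adjusted p = 0.016), 2.04 for C1qb and 1.58 for C2 (SE 0.29, adjusted p = 0.007).

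With CDN2 (20 µg) they were 5.12 for Serping1 (SE 0.92, adjusted p = 0.0046), 3.91 for Cfb (SE 0.75, adjusted p = 0.0059), 3.58 for C3ar1 (SE 0.51, adjusted p = 0.0022), 3.21 for C4b (SE 0.52, adjusted p = 0.0032), 3.05 for C3 (SE 0.97, adjusted p = 0.042) and 2.97 for C5ar1 (SE 0.45, adjusted p = 0.0027). The value of C3 was 1.43 (adjusted p = 0.29) without tumor 1 of 2 doses of CDN2, and its call was also lost without any 1 of the other tumors compared except tumor 2 of 2 doses of CDN2. All of these values also hold the lower levels of the PBS tumors of 2 doses. Each value equals the log2 change between doses with the agent minus that with PBS. For C1qa, C1qb and C1qc the change with PBS was -1.31, -1.07 and -1.36, beside values of 2.22, 2.04 and 2.31 with exoCDN2. None of these chains was called between the doses of exoCDN2 themselves. Why the PBS levels differed was not tested.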

How the results depend on the processing

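The alternatives gave 1023 values for the 87 fold changes of the 10 genes that were printed. Of these values, 868 kept their direction and their side of the limits, 88 lost a call, 63 gained one and 4 turned their direction. Only called values can lose a call, and 444 of those called in the main fit kept theirs. The 4 that turned were all between exoCDN2 and CDN2 after 2 doses. Leaving out each tumor there gave -1.92 to 0.38 for C3, -0.52 to 0.04 for C1qb and -0.81 to 0.21 for C3ar1. The values above 0 came without tumor 1 of CDN2 (C3 0.38, C3ar1 0.21, C1qb 0.0) and without tumor 2 of exoCDN2 (C1qb 0.04). Fold changes not printed were not counted, and C2 between doses of CDN2 (20 µg) turned too without tumor 1 of 2 doses. The other counts below are of the 10 genes called. Without a filter on low counts they were 1 for unloaded EVs, 3 for exoCDN2 and 2 for CDN2 (100 µg) against PBS after 1 dose, 3 for CDN2 of unstated amount, 3 and 4 for exoCDN2 against CDN2 after 1 and 2 doses, 2 for CDN2 (100 µg) against 20 µg and 5 for PBS between doses. With only the groups compared in the fit they were 3, for exoCDN2, and 1, for CDN2 (100 µg), against PBS after 1 dose, 0 for exoCDN2 against CDN2 after 2 doses, 1 between the amounts of CDN2, 4 for PBS between doses and 3 for CDN2 between doses. With DESeq2 they were 3 for exoCDN2 against CDN2 after 1 dose, 1 between the amounts and 3 for PBS between doses. With DESeq2, without the filter and with only the groups compared alike, exoCDN2 went from 7 to 10 against PBS after 2 doses and from 4 to 6 between doses. With the PBS tumors pooled the count was 0 for CDN2 of unstated amount. Leaving out each tumor gave 0 to 1 for CDN2 of unstated amount, 0 to 4 for exoCDN2 against CDN2 after 2 doses, 0 for PBS between doses, 1 to 4 for exoCDN2 between doses and 3 to 8 for exoCDN2 between doses relative to PBS, and, after 2 doses against PBS, 5 to 7 for exoCDN2 and 7 to 8 for CDN2. The cause of these moves was not tested, other than that leaving out tumors leaves fewer of them.

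The counts over all genes also moved with the setting: from 444 to between 144 and 1247 for exoCDN2, from 527 to 164 and 1076 for CDN2 (20 µg) and from 410 to 87 and 1325 for CDN2 (100 µg) against PBS after 1 dose, from 0 to 227 for unloaded EVs, from 1913 to 896 and 3023 for exoCDN2 and from 5173 to 2975 and 8512 for CDN2 after 2 doses, and from 164 to 0 and 713 for CDN2 of unstated amount. Between treatments they moved from 496 to 225 and 1101 (exoCDN2 against unloaded EVs), 102 to 0 and 707, and 3272 to 30 and 6318 (exoCDN2 against CDN2 after 1 and 2 doses), and 76 to 0 and 800 (amounts of CDN2). Between doses they moved from 186 to 84 and 766 for PBS, 1251 to 168 and 2051 for exoCDN2 and 3515 to 510 and 6130 for CDN2, and relative to PBS from 1146 to 480 and 2045 for exoCDN2 and 2838 to 1128 and 5615 for CDN2.

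Groups share replicate numbers in the labels. Same-numbered tumors deviated together with a mean r of 0.0022 over 28 pairs of groups (-0.183 to 0.322). This mean cannot show whether some groups shared a factor, since single pairs differed. The highest r, 0.322, was between exoCDN2 and CDN2 (20 µg) after 2 doses, where tumor 1 was higher at 10 and 8 of the 10 genes. It was higher at 3 after 2 doses of PBS, and at 0 to 4 in the groups of 1 dose. A shared factor was not tested. With the replicate number as a block, exoCDN2 after 2 doses called 8 of the 10 genes against PBS, C1qc included (adjusted p = 0.041), and the differences between doses relative to PBS called 7 with exoCDN2, without Cfb (adjusted p = 0.061), and 5 with CDN2, without C3 (adjusted p = 0.059). In the fit without the tumors given 2 doses of CDN2 (20 µg), chosen after seeing the data, exoCDN2 called 7 genes against PBS after 2 doses, 6 between doses and 9 relative to PBS.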

Other observations

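Other values of the wider complement list were these. Cd93, a receptor first described as one for C1q, was lower after 1 dose of CDN2 (20 µg) than after PBS, at 12.2 and 14.6 CPM against 33.7 and 30.8 CPM (log2 fold change -1.27, SE 0.20, adjusted p = 0.0032). After 2 doses of CDN2 it stood at 28.2 and 24.7 CPM against 29.7 and 26.6 CPM with PBS (adjusted p = 0.71). Endothelial markers moved with this gene after 1 dose, with 4 of 6 called lower and a summed level of 33.6 to 35.4 CPM against 89.5 to 92.7 CPM, and their part in the value was not tested.

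Clu was already higher after 1 dose of CDN2, at 9.09 and 7.45 CPM with 20 µg (log2 fold change 1.77, SE 0.39, adjusted p = 0.022) and 7.44 and 11.7 CPM with 100 µg (1.98, SE 0.39, adjusted p = 0.017), against 2.23 and 2.61 CPM with PBS. Itgax, the alpha chain of another receptor for iC3b, was higher with exoCDN2 than with CDN2 (20 µg) after 2 doses, at 7.93 and 6.08 CPM against 0.507 and 2.92 CPM (log2 fold change 1.94, SE 0.63, adjusted p = 0.032), and this call was lost without tumor 1 of CDN2 (1.26, adjusted p = 0.17).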
